A study of Mus musculus with 8 samples.

Results

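The genes described here mark lymphocytes: T cells, natural killer (NK) cells, B cells and plasma cells. The list names 37 genes, given by symbol, and all 37 were found among the 35275 gene identifiers of the table. T cells read peptides through a receptor made of alpha and beta chains (Trac, Trbc2) that signals through the CD3 and zeta chains (Cd3d, Cd3e, Cd3g, Cd247), and the kinases Lck and Zap70 pass the signal on. NK cells and CD8 T cells kill by releasing granzymes and perforin. B cells signal through Cd79a and Cd79b beside membrane immunoglobulin, and plasma cells secrete antibody, whose IgM and IgA forms are joined by the J chain. The normal liver holds resident lymphocytes, among them NK and NKT cells, and hepatocytes do not make the receptor chains of these cells.

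RNA was sequenced from 8 mouse livers, 4 labelled Triple LKO (LKO, liver-specific knockout) and 4 labelled wild type (WT), each with 2 females and 2 males. Per the series title, the 3 genes lost are those of the tristetraprolin family, which encode proteins that bind AU-rich mRNA and promote its decay. Livers are named here by label, sex and replicate: LKO-labelled females 1 and 2, LKO-labelled males 3 and 4, WT females 1 and 2, and WT males 3 and 4. The labels and title do not give the strain, the age, the driver of the deletion or any treatment of the controls. They also do not say which part of a liver was taken, or whether it was tumour tissue. Values are FPKM, fragments scaled to the length of the transcript and to the depth of the library, so they may be compared between genes of a liver. Between livers they also depend on what else a library holds, and results with another scaling are given below.

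The 8 libraries held 15.1 M to 18.8 M fragments. Of the targeted genes, Zfp36 had 11.6, 17.4, 4.51 and 3.66 FPKM in LKO-labelled livers, against 29.5 to 61.4 FPKM in WT livers, and Zfp36l1 had 4.67, 8.63, 0.499 and 0.695 FPKM, against 10.6 to 21.9 FPKM in WT livers. Zfp36l2 went another way, with 18.1, 33.0, 4.34 and 3.86 FPKM in LKO-labelled females 1 and 2 and males 3 and 4, against 11.8 to 17.2 FPKM in WT livers. Since Zfp36l2 goes against the label in both females, the term LKO-labelled is kept throughout. LKO-labelled female 1 and WT male 4 also differed from the other 6 libraries in Gm42418, a gene that overlaps ribosomal RNA (0.0423% and 0.0602% of fragments, against 3.19% to 4.34%). Mitochondrial genes took 2.80% and 3.44% of fragments in LKO-labelled females and 7.09% and 10.4% in LKO-labelled males, against 6.53% to 7.76% in WT livers, and their part in the results was not tested.

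Promoter sequences are shown for 2 members that rose in LKO-labelled females, Lck, which has 2 transcription starts, and Ltb. They are from RefSeq on GRCm38.p6, from 250 bases before to 50 bases after the start, written along the gene's strand. Capitals mark the ETS core AGGAAG and the RUNX core TGTGGT, either strand, which are motifs of factor families that act in lymphocytes.
Lck upstream start, chr4:129573592-129573891, minus strand: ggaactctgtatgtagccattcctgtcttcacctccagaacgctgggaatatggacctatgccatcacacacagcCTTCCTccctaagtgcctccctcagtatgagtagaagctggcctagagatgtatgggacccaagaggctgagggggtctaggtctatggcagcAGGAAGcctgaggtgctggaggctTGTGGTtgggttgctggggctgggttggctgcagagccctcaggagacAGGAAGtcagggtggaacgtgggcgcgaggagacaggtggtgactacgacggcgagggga
Lck downstream start, chr4:129558323-129558622, minus strand: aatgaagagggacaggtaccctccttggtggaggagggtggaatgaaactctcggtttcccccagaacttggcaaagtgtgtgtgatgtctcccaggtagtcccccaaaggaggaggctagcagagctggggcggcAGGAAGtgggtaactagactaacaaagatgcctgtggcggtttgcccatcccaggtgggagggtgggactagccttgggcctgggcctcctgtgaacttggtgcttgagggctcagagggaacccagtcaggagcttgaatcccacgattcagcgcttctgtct
Ltb, chr17:35194257-35194556, plus strand: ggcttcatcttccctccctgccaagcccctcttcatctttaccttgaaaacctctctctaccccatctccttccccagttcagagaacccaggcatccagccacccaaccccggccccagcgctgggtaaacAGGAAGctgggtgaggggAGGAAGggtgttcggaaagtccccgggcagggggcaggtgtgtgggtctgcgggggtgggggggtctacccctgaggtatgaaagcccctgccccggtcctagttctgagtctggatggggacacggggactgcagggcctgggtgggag
The upstream Lck promoter held 3 ETS cores and 1 RUNX core, the downstream one 1 ETS core and 0 RUNX cores, and the Ltb promoter 2 ETS cores and 0 RUNX cores. Of the 37 members, 23 had a promoter in the table. An ETS core stood in 13 of these 23 (38.4% of 27025 genes with a promoter), and a RUNX core in 10 (18.9% of genes), among them Gzma, Gzmb, Prf1, Nkg7, Ncr1, Lat and Zap70. The E box CAGCTG stood in 4 (18.3% of genes), and the octamer ATTTGCAT in 0 (1.97% of genes). Matches were counted for each motif separately, and an ETS and a RUNX core can share an end base, which none in the 3 printed promoters do. A match in so short a window describes letters only.

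Most lymphocyte genes were high in the 2 LKO-labelled females and not in the 2 LKO-labelled males. Of the 37 members, 25 had a higher FPKM in both LKO-labelled females than in any of the other 6 livers, a pattern shown by 25.7% of the 22743 identifiers with a value above 0 in any library and by 30.3% of the 16343 whose mean lay in the members' range. It was shown by 6 of 6 T cell receptor and CD3 chains, 7 of 7 T cell co-receptors and co-stimulatory receptors, 3 of 4 NK receptors and both cytotoxic transcription factors. By contrast it was shown by 0 of 4 B cell genes and 1 of 4 plasma cell and immunoglobulin genes, the J chain gene. The LKO-labelled females also differed from each other, with female 2 above female 1 for 34 of the 37 members. Tissue RNA does not tell more cells of a type from more RNA per cell.

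**Figure D1:**
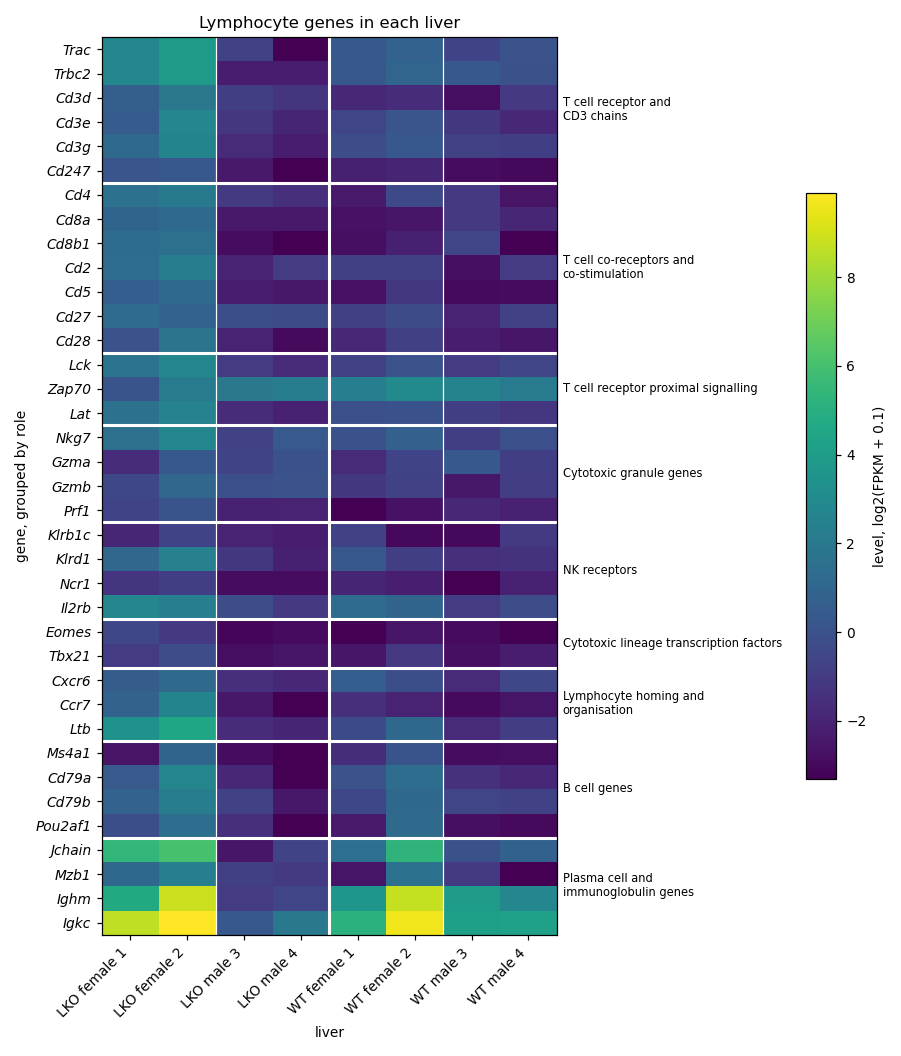
Level of each of the 37 members in each liver, as log2(FPKM + 0.1), with the 4 LKO-labelled livers left of the 4 WT livers and genes grouped by role. T cell genes are brightest in the 2 LKO-labelled females, while Ighm, Igkc and Jchain are also bright in WT female 2 and dark in both LKO-labelled males.

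Differences were tested for genes with a mean of at least 0.5 FPKM, on the scale log2(FPKM + 1), which understates the change of low genes. Of the 37 members, 30 were tested and 7 were too low. A mean of at least 0.5 FPKM would have been met by 18 members without the LKO-labelled females, so 12 of the 30 were tested only because those 2 livers were high, and counts among the tested are descriptions. Changes are given with the SE and the limma p adjusted by Benjamini-Hochberg over all 13573 genes tested, called at 0.05. Each within-sex contrast sets 2 livers against 2 and takes its spread from all 8.

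Within females, 17 of the 30 tested members rose and 0 fell, against 28.1% of all tested genes that rose and 6.23% that fell. Of these 17, Cd3d, Cd4, Cd8a, Cd8b1, Cd2, Cd5, Lat, Klrd1 and Ccr7 had passed the filter only through the LKO-labelled females. Their calls, here and below, are conditional on livers in which they were high. The median log2 change of the 30 was 1.31, beside 0.45 over all tested genes. Within males 0 members were called in either direction by limma (13.4% of all tested genes rose and 4.09% fell) or by voom on recovered fragments (12.7% and 3.83%), and 1, Trbc2, had an unadjusted p under 0.05. The median in males was -0.09, beside 0.24 over all tested genes. With both sexes together Cd27 rose and no other member was called, against 24.7% of all tested genes that rose and 5.74% that fell, and 7 members had an unadjusted p under 0.05. By voom, which called 31% of all tested genes higher over both sexes, 7 members rose: Cd3d, Cd4, Cd2, Cd5, Cd27, Ccr7 and Ltb. The change in females exceeded that in males for 7 members in the test of that difference itself, against 5.47% of all tested genes with a larger and 1.73% with a smaller change in females: Trac, Trbc2, Cd8a, Cd8b1, Lck, Lat and Ltb. With no limit on level, and 22743 identifiers tested, 17 of 37 members rose within females (16.6% of identifiers), 0 within males (5.23%) and 0 over both sexes (10.3%), and 4 rose more in females (2.09%).

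Single libraries moved these counts, and the shares of all tested genes moved too, though not always in the same direction. The count of 17 in females was 7 without WT female 1, when 12.0% of all tested genes rose. It was 11 of 24 members tested, 10 higher and 1 lower, without LKO-labelled female 2, when 35.3% of all tested genes rose and 8.6% fell. The count of 7 for the difference between sexes was 0 by voom, which called 0.118% of all tested genes with a larger change in females. It was 0 without any 1 of WT female 1, WT males 3 and 4 and LKO-labelled males 3 and 4, and 2 without WT female 2, when 0.175% to 0.948% of all tested genes had a larger change in females. Without LKO-labelled female 1 it was 16, and without LKO-labelled female 2 it was 10, of which 9 were larger and 1 smaller in females, beside 13.1% and 14.6% of all tested genes with a larger change. Without both libraries low in Gm42418 the counts were 19 within females (25.9% of all tested genes rose), 0 within males, 1 over both sexes (Gzmb) and 14 for the difference (8.27% of all tested genes). Over both sexes 12.2% of all tested genes rose in that fit.

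**Figure D2:**
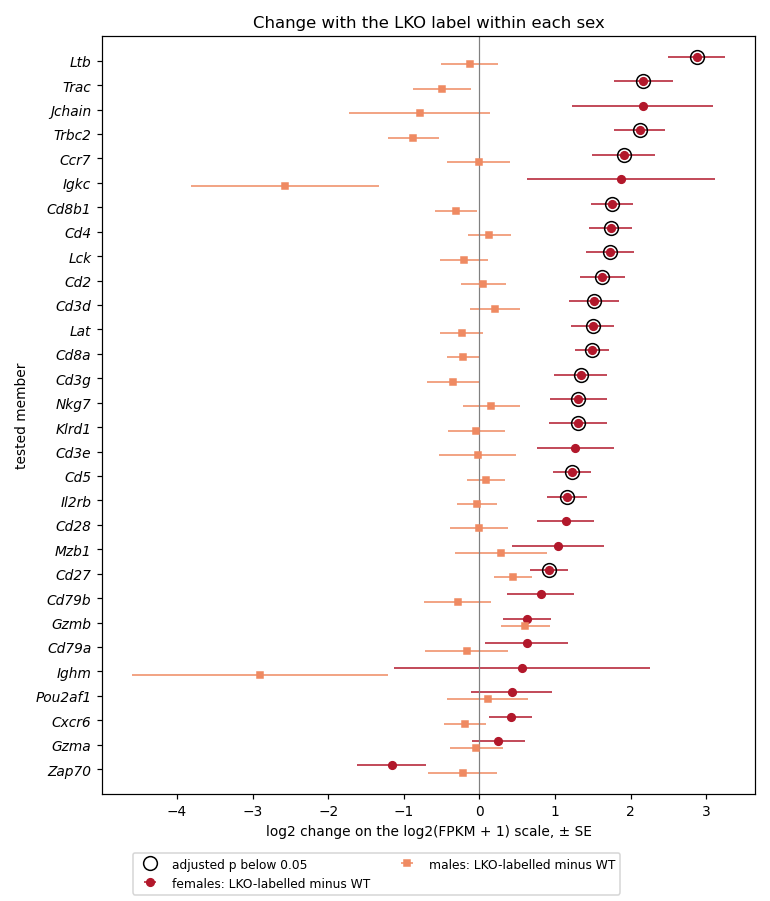
Log2 change on the log2(FPKM + 1) scale, with its SE, of the 30 tested members within females (circles) and within males (squares); rings mark adjusted p under 0.05. Female changes of the T cell genes lie between 0.92 (Cd27) and 2.87 (Ltb, a lymphotoxin subunit) where ringed, while male changes of the same genes lie between -0.87 (Trbc2) and 0.44 (Cd27), and Ighm and Igkc have wide errors.

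Both T cell receptor constant regions were several times higher in LKO-labelled females than in any other liver. Trac (ENSMUSG00000076928, chromosome 14, 54220521 to 54224206, plus strand, GRCm38) encodes the alpha chain constant region and had 6.53 and 14.7 FPKM in the LKO-labelled females. The LKO-labelled males had 0.515 and 0 FPKM of Trac, WT females 1.17 and 1.71 FPKM and WT males 0.536 and 0.961 FPKM. All 4 WT livers were below both LKO-labelled females. LKO-labelled male 3 and WT male 3 had 4 fragments each and cannot be told apart at this depth. The log2 change was 2.17 ± 0.39 in females (SE, limma adjusted p 0.00549), and the female change exceeded the male one by 2.66 ± 0.55 (SE, adjusted p 0.0346). The value of 0 in LKO-labelled male 4 allows up to 3 fragments.

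Trbc2 (ENSMUSG00000076498, chromosome 6, 41546730 to 41548352, plus strand), the second beta chain constant region, had 6.77, 14.3, 0.102 and 0.108 FPKM in LKO-labelled females 1 and 2 and males 3 and 4, against 1.16, 1.92, 1.17 and 0.889 FPKM in WT females 1 and 2 and males 3 and 4. The 3 sets of LKO-labelled females, WT livers and LKO-labelled males did not overlap. Its log2 change was 2.12 ± 0.34 in females (SE, limma adjusted p 0.00359), with a difference between the sexes of 2.99 ± 0.48 (SE, adjusted p 0.0196). Its neighbour Trbc1 shares 95.6% of 521 aligned bases with it, so reads could be split between them. Trbc1 had the same order, with 4.64, 10.2, 0.104 and 0.219 FPKM in LKO-labelled livers and 0.470 to 1.42 FPKM in WT livers.

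Of the CD3 and zeta chains, which carry the receptor's signal, Cd3d and Cd3g rose in females. Neither call held without WT female 1 or without WT female 2. Cd3g was also not called with no filter or median-of-ratios scaling (limma adjusted p 0.0502 and 0.0801), or by voom (adjusted p 0.0529). Cd3g rose to 2.32 and 6.12 FPKM in LKO-labelled females, against 0.765 and 1.09 FPKM in WT females (log2 1.34 ± 0.35 SE, limma adjusted p 0.0239), and stood at 0.208 and 0.110 FPKM in LKO-labelled males, against 0.487 and 0.453 FPKM in WT males. Cd3d rose to 1.5 and 3.74 FPKM in LKO-labelled females, against 0.182 and 0.222 FPKM in WT females (log2 1.52 ± 0.33 SE, adjusted p 0.0117), with 0.443 and 0.297 FPKM in LKO-labelled males and 0.0419 and 0.350 FPKM in WT males. Cd3e had 1.34 and 6.93 FPKM in LKO-labelled females, against 0.587 and 1.02 FPKM in WT females, a change that did not pass (1.27 ± 0.51 SE, adjusted p 0.0909). Cd247, the zeta chain, was too low to test at the limit of 0.5 FPKM, with 1.04 and 1.09 FPKM in LKO-labelled females and at most 0.159 FPKM in the other 6 livers. With no limit on level it was called higher in females (limma adjusted p 0.00294), as were 16.6% of identifiers. Its change was also larger in females than in males (limma adjusted p 0.0324, beside 2.09% of identifiers).

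**Figure D3:**
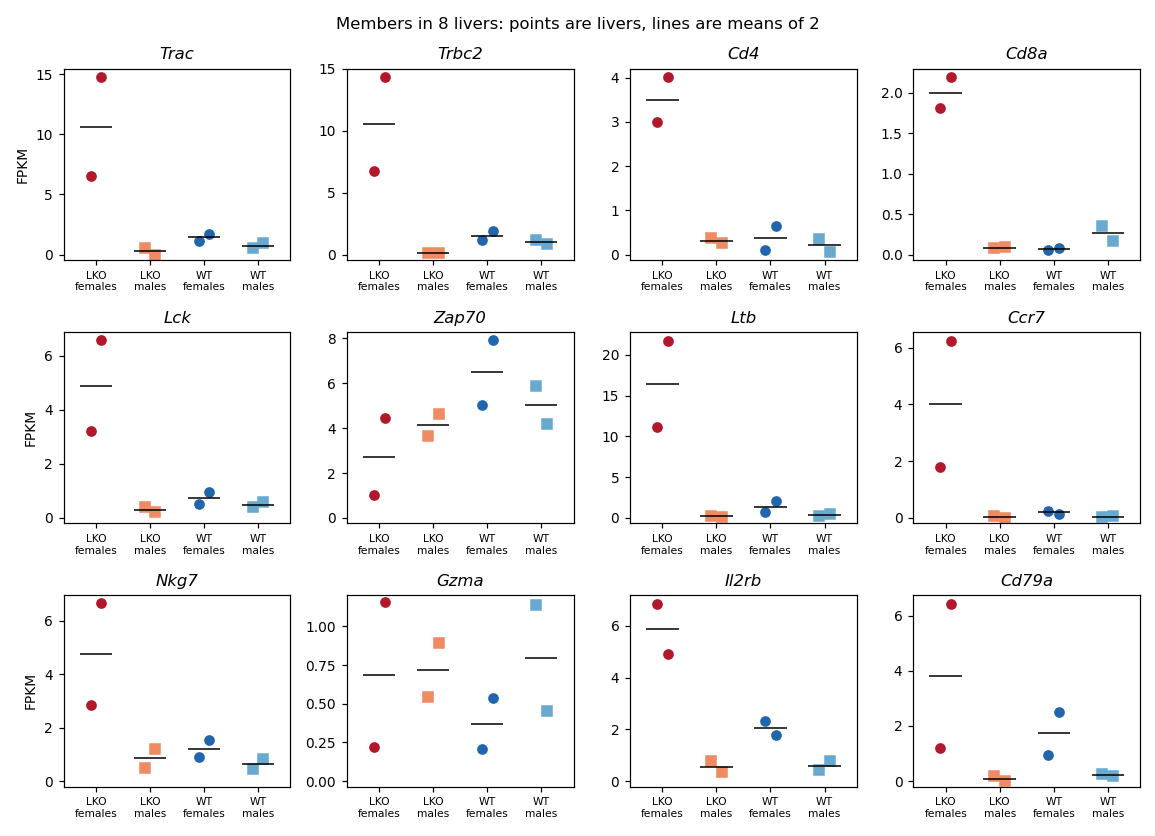
FPKM of 12 members in each liver on linear axes, with 1 point per liver and a line at the mean of 2. Trac, Trbc2, Cd4, Cd8a, Lck, Ltb, Ccr7, Nkg7 and Il2rb are highest in the 2 LKO-labelled females (LKO females), whereas Zap70 is not, Gzma overlaps between the labels in each sex and Cd79a overlaps between LKO-labelled and WT females.

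Markers of helper and of killer T cells were both higher in LKO-labelled females. Cd4, the co-receptor of helper T cells that other leukocytes can carry too, had 2.99 and 4.01 FPKM in LKO-labelled females and 0.377 and 0.253 FPKM in LKO-labelled males. In WT livers Cd4 lay between 0.0639 and 0.644 FPKM, clear of the LKO-labelled females and overlapping the LKO-labelled males. The female log2 change was 1.74 ± 0.29 (SE, limma adjusted p 0.00393).

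Cd8a and Cd8b1 encode the 2 chains of the killer T cell co-receptor. Cd8a had 1.80, 2.19, 0.0850 and 0.0896 FPKM in LKO-labelled females 1 and 2 and males 3 and 4, against 0.0577, 0.0752, 0.354 and 0.169 FPKM in the WT livers in the same order. In fragments, taken as the smallest whole numbers that fit the FPKM, these were 88, 115, 5 and 5 in LKO-labelled livers and 3, 4, 20 and 8 in WT livers. Cd8b1 had 54, 68, 1 and 0 fragments in LKO-labelled livers and 1, 3, 15 and 0 in WT livers. The log2 changes in females were 1.49 ± 0.22 for Cd8a (SE, limma adjusted p 0.00283) and 1.75 ± 0.28 for Cd8b1 (adjusted p 0.00337), and the sexes differed by 1.70 and 2.06 (adjusted p 0.0274 and 0.0289). WT male 3 was the highest WT liver for both chains.

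The adhesion receptor Cd2 rose to 2.56 and 4.76 FPKM in LKO-labelled females, against 0.470 and 0.459 FPKM in WT females (log2 1.63 ± 0.30 SE, limma adjusted p 0.0062), and had 0.138 and 0.389 FPKM in LKO-labelled males, against 0.0480 and 0.402 FPKM in WT males. Cd5, an inhibitory receptor of T cells, rose to 1.43 and 2.19 FPKM, against 0.0582 and 0.341 FPKM in WT females (log2 1.22 ± 0.25 SE, adjusted p 0.00928), and had at most 0.103 FPKM in males of either label. Cd28, the main co-stimulatory receptor, had 0.930 and 3.35 FPKM in LKO-labelled females and 0.180 and 0.460 FPKM in WT females, and did not pass (adjusted p 0.0512). Cd27, a co-stimulatory receptor of the TNF receptor family, was 1 of 2 members, with Gzmb, whose 4 LKO-labelled livers all lay above the 4 WT livers (17.6% of the 22743 identifiers did so, and 23.1% of those in the members' range). It had 2.35, 1.68, 0.819 and 0.756 FPKM in LKO-labelled livers, against 0.463, 0.717, 0.142 and 0.509 FPKM in WT livers. Its mean was 1.40 ± 0.76 FPKM in LKO-labelled and 0.458 ± 0.238 FPKM in WT livers (SD, n = 4 each), with a log2 change of 0.68 ± 0.21 over both sexes (SE, limma adjusted p 0.0417). This call over both sexes ended without any 1 of 7 livers, all but WT male 4, with adjusted p between 0.0405 and 0.118 over the 8 fits.

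The 3 signalling genes behind the receptor did not move as a set. Lck, the kinase that starts the signal, had 3.20, 6.58, 0.390 and 0.205 FPKM in LKO-labelled livers, against 0.496, 0.943, 0.405 and 0.576 FPKM in WT livers (females log2 1.73 ± 0.32 SE, limma adjusted p 0.00616). Lat, the adaptor that gathers the signalling complex, had 3.06, 5.82, 0.215 and 0.136 FPKM in LKO-labelled livers, against 0.826, 0.902, 0.447 and 0.320 FPKM in WT livers (females 1.5 ± 0.28 SE, adjusted p 0.00666). Both were above every other liver in LKO-labelled females. In LKO-labelled males both had the lowest FPKM, but Lck had 16 fragments in LKO-labelled male 3 and in WT male 3, and Lat had 5 in LKO-labelled male 3 and 6 in WT male 4.

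Zap70, the kinase that binds the phosphorylated CD3 and zeta chains, had another pattern. It had 1.0, 4.44, 3.65 and 4.65 FPKM in LKO-labelled females 1 and 2 and males 3 and 4, against 5.05, 7.95, 5.88 and 4.19 FPKM in WT livers in the same order. In WT livers it was thus higher than every other T cell member per length, where Lck did not reach 1 FPKM, and it was lowest in LKO-labelled female 1. Its change in females was -1.16 ± 0.46 on the log2 scale (SE, limma adjusted p 0.0859), and it was the only tested member with a value below 0 in that contrast. It was called lower in females without LKO-labelled female 2 (-1.88, adjusted p 0.00491) and with median-of-ratios scaling (-1.53, adjusted p 0.041), while without LKO-labelled female 1 the value was -0.44 (adjusted p 0.338).

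Among genes of killing granules, Nkg7, a granule membrane protein of NK and killer T cells, rose to 2.85 and 6.66 FPKM in LKO-labelled females, against 0.891 and 1.54 FPKM in WT females (log2 1.31 ± 0.38 SE, limma adjusted p 0.0337). In LKO-labelled males it had 0.485 and 1.21 FPKM, against 0.441 and 0.83 FPKM in WT males. Nkg7 was not called in females with no filter or with median-of-ratios scaling (limma adjusted p 0.0751 and 0.114). With totals formed without the 50 most abundant genes (limma adjusted p 0.0541) or by voom (adjusted p 0.0719) it was not called either. The granzyme genes stayed low in every liver. Gzmb had 0.634, 1.93, 0.826 and 0.949 FPKM in LKO-labelled livers, all above the WT range of 0.0781 to 0.498 FPKM, with a log2 change of 0.62 ± 0.24 over both sexes (SE, limma adjusted p 0.0776). Its within-sex values were alike, 0.63 in females and 0.61 in males (adjusted p 0.163 and 0.229). Without LKO-labelled female 1 it was called over both sexes (0.79, adjusted p 0.037).

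Gzma overlapped between the labels, with 0.219 to 1.15 FPKM in LKO-labelled livers and 0.206 to 1.14 FPKM in WT livers (log2 0.11 ± 0.26 SE, limma adjusted p 0.77). Prf1, perforin, was too low to test at the limit of 0.5 FPKM and had 17 and 34 fragments in LKO-labelled females, 5 and 5 in LKO-labelled males, 0 and 2 in WT females and 7 and 4 in WT males. With no limit on level Prf1 was called higher in females (limma adjusted p 0.0121), as were 16.6% of identifiers.

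Receptors shared by NK cells and T cells were called higher in females in the main fit, though not under every setting. Those closest to NK identity were near the limit of counting. Il2rb, the receptor chain for IL-2 and IL-15, had 6.87, 4.92, 0.771 and 0.354 FPKM in LKO-labelled livers, against 2.33, 1.79, 0.411 and 0.787 FPKM in WT livers (females 1.16 ± 0.27 SE, limma adjusted p 0.0139). It was higher in both WT females than in both WT males. Klrd1, the CD94 chain of NK receptors, had 1.96, 5.32, 0.347 and 0.122 FPKM in LKO-labelled livers and 1.11, 0.448, 0.241 and 0.288 FPKM in WT livers (females 1.30 ± 0.38 SE, adjusted p 0.0341). With median-of-ratios scaling neither Il2rb nor Klrd1 was called in females (limma adjusted p 0.0683 and 0.0999). Klrd1 was also not called with no filter or with totals formed without the 50 most abundant genes (limma adjusted p 0.0654 and 0.0529). Nor was it called by voom (adjusted p 0.0687).

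Ncr1, the NKp46 receptor that marks NK cells, was too low to test, with 7, 11, 1 and 1 fragments in LKO-labelled livers and 4, 3, 0 and 3 in WT livers. Klrb1c, the NK1.1 antigen of some strains, had 7, 23, 7 and 5 fragments in LKO-labelled livers and 22, 1, 1 and 15 in WT livers, with no order by label or sex. It shares 92.7% of 766 aligned bases with Klrb1a, so its reads are uncertain.

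The T-box factors that direct killer and NK cell programs were low as well. Eomes had 34 and 21 fragments in LKO-labelled females and 0 to 4 in the other 6 livers. Tbx21 had 16, 32, 2 and 3 fragments in LKO-labelled livers, against 3, 15, 2 and 4 in WT livers. Neither was tested at the limit of 0.5 FPKM. With no limit on level, Eomes was called higher in females (limma adjusted p 0.0139) and Tbx21 was not (adjusted p 0.121). Ncr1, Klrb1c and Ms4a1 were not called in females in that fit either (limma adjusted p 0.0792, 0.796 and 0.862).

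Ltb had the largest female change of the 30 tested members on the log2(FPKM + 1) scale. It encodes lymphotoxin beta, a membrane ligand that organises lymphoid tissue and is made by lymphocytes and other cells (ENSMUSG00000024399, chromosome 17, 35194439 to 35196320, plus strand). It had 11.2, 21.8, 0.225 and 0.158 FPKM in LKO-labelled livers, against 0.680, 2.08, 0.195 and 0.420 FPKM in WT livers. The LKO-labelled females averaged 12.0 times the WT females, a ratio that was higher for Cd3d (13), Ccr7 (20.5), Cd8a (30.1) and Cd8b1 (31.8), whose levels in WT females rest on 4 to 13 fragments in all. For Ltb, the LKO-labelled males lay within the WT range or just under it. The female log2 change was 2.87 ± 0.38 (SE, limma adjusted p 0.00187) and the sexes differed by 3.0 ± 0.54 (SE, adjusted p 0.0251).

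Ccr7, the receptor that guides naive T cells and dendritic cells to lymph nodes, had 1.78 and 6.24 FPKM in LKO-labelled females, 0.0807 and 0 FPKM in LKO-labelled males, and 0.0280 to 0.243 FPKM in WT livers (females 1.91 ± 0.41 SE, limma adjusted p 0.0113). Cxcr6, a homing receptor of liver-resident T and NKT cells, had 1.39 and 2.27 FPKM in LKO-labelled females, against 1.43 and 0.808 FPKM in WT females, and these overlapped (0.41 ± 0.28 SE, adjusted p 0.281).

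Trac, Trbc2 and Ltb, whose mean reached 0.5 FPKM without the LKO-labelled females, were called in females in all 8 fits that left out 1 liver. Cd4 and Cd2 were also called in all 8, Cd8b1 in the 7 and Cd8a in the 6 fits that tested them. These 4 passed the filter only through the LKO-labelled females, and the fits that did not test them were those without LKO-labelled female 2 (Cd8a and Cd8b1) and without LKO-labelled female 1 (Cd8a), so their calls are conditional on livers in which they were high. Over all alternatives the highest adjusted p of these 7 was 0.0472, for Trac. Klrd1 was called in 1 of 8 such fits and Nkg7 in 3 of 8.

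B cell genes differed more between single livers than between labels. Cd79a, a signalling chain of the B cell receptor, had 1.19, 6.43, 0.183 and 0 FPKM in LKO-labelled females 1 and 2 and males 3 and 4, against 0.950, 2.50, 0.266 and 0.182 FPKM in the WT livers (females log2 0.63 ± 0.55 SE, limma adjusted p 0.402). Cd79b, its partner, had 1.66, 4.83, 0.484 and 0.0784 FPKM, against 0.631, 2.10, 0.580 and 0.509 FPKM in WT livers (females 0.81 ± 0.44 SE, adjusted p 0.188). In both genes female 2 of each label was the highest liver of that label.

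Ms4a1, which encodes CD20, was too low to test and showed the same 2 livers most plainly. It had 3 and 94 fragments in LKO-labelled females, 2 and 0 in LKO-labelled males, 12 and 51 in WT females and 2 and 2 in WT males. Pou2af1, a co-activator of immunoglobulin transcription, had 0.800, 2.65, 0.249 and 0 FPKM in LKO-labelled livers, against 0.0938, 2.32, 0.0432 and 0.0258 FPKM in WT livers (females 0.43 ± 0.54 SE, limma adjusted p 0.563).

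The antibody genes had the widest range of all members and no call by label. Igkc, the kappa light chain constant region (ENSMUSG00000076609, chromosome 6, 70726435 to 70726966, plus strand), had 398, 958, 1.15 and 3.82 FPKM in LKO-labelled females 1 and 2 and males 3 and 4, against 35.0, 792, 17.3 and 19.1 FPKM in the WT livers. WT female 2 lay between the 2 LKO-labelled females, and both LKO-labelled males lay below every WT liver. The log2 change was 1.87 ± 1.24 in females (SE, limma adjusted p 0.272). Within males it was -2.57 ± 1.24 (SE, adjusted p 0.192).

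Ighm, the IgM heavy chain constant region (ENSMUSG00000076617, chromosome 12, 113418558 to 113422730, minus strand), had 26.2, 457, 0.411 and 0.591 FPKM in LKO-labelled livers, against 12.3, 429, 15.2 and 6.79 FPKM in WT livers. It was thus nearly equal in female 2 of both labels and more than an order of magnitude lower in the other females. The mean of the 4 LKO-labelled livers was 121 ± 224 FPKM and that of the WT livers 116 ± 209 FPKM (SD, n = 4 each). Variable and constant segments of immunoglobulin genes have near-identical copies, and single values depend on how reads were assigned.

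Jchain, which joins IgM and IgA, had 43.9, 65.7, 0.0764 and 0.523 FPKM in LKO-labelled livers, against 2.72, 39.2, 0.875 and 1.62 FPKM in WT livers. Both LKO-labelled females were above, and both LKO-labelled males below, all other livers, while WT female 2 came close to the females (females log2 2.16 ± 0.93 SE, limma adjusted p 0.109). Mzb1, an endoplasmic reticulum helper of antibody secretion, had 2.06, 5.07, 0.470 and 0.372 FPKM in LKO-labelled livers, against 0.0665, 3.12, 0.367 and 0 FPKM in WT livers (females 1.04 ± 0.61 SE, adjusted p 0.217).

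**Figure D4:**
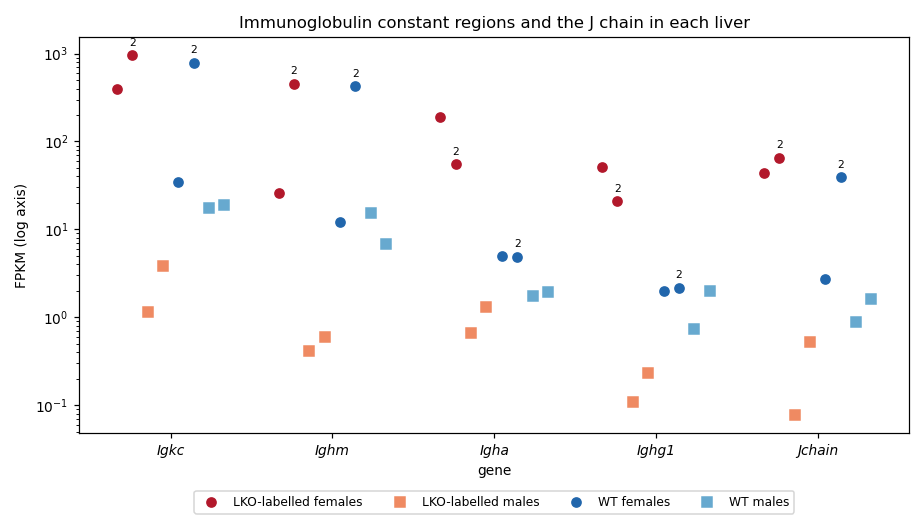
FPKM on a log axis of 4 immunoglobulin constant regions and the J chain in each liver; circles are females, squares males, and the digit 2 marks female 2 of each label. Igha and Ighg1 are highest in the 2 LKO-labelled females, whereas Ighm and Igkc in WT female 2 reach 429 and 792 FPKM, close to LKO-labelled female 2.

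Heavy chain classes outside the list of members divided the livers in another way. Igha, the IgA constant region, had 188 and 55.5 FPKM in LKO-labelled females and 0.669 and 1.30 FPKM in LKO-labelled males, against 4.95, 4.89, 1.77 and 1.92 FPKM in WT livers (females log2 4.12 ± 0.50 SE, limma adjusted p 0.00134). Ighg1 had 50.7, 21.2, 0.109 and 0.230 FPKM in LKO-labelled livers, against 0.739 to 2.17 FPKM in WT livers (females 3.46 ± 0.42 SE, adjusted p 0.00134). Both were thus called where Ighm was not, and both separated the LKO-labelled females from WT female 2. Of the summed FPKM of 6 heavy chain constant regions (Ighm, Igha, Ighg1, Ighg2b, Ighg2c and Ighg3), IgA made up 63.6% and 9.80% in LKO-labelled females 1 and 2, against 20.7% and 1.06% in WT females 1 and 2. IgM made up 8.90% and 80.8% in LKO-labelled females 1 and 2, against 51.4% and 92.6% in WT females 1 and 2. In WT males 3 and 4 IgM made up 79.1% and 53.2%. In LKO-labelled males 3 and 4 IgM made up 34.6% and 20.1% and IgA 56.3% and 44.3%. The sums behind these shares were only 1.19 and 2.94 FPKM in the LKO-labelled males. LKO-labelled female 1 thus had mainly IgA and IgG RNA, while LKO-labelled female 2 and all 4 WT livers had mainly IgM RNA.

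Both LKO-labelled males were the lowest 2 of the 8 livers for 10 of the 37 members (6.6% of the 22743 identifiers, and 8.66% of those in the members' range): Trac, Trbc2, Cd3g, Lck, Lat, Ms4a1, Cd79b, Jchain, Ighm and Igkc. The same 10 were below all 4 WT livers (11.0% of identifiers, and 14.1% of those in the members' range). For 4 of the 10 (Trac, Lck, Ms4a1 and Cd79b), LKO-labelled male 3 had as many fragments as the lowest WT liver or more, so their place rests on the scaling to depth. In LKO-labelled male 4, 7 members were listed at 0. None of these differences within males was called, as given above. With a pseudocount of 0.1, 1 member was called lower in males, beside 4.77% of all tested genes. Without either WT female 1 member was called lower too, beside 2.59% and 2.67% of all tested genes. Without either LKO-labelled female 1 was called lower and 1 higher. All tested genes were then lower in 7.85% and 7.74% and higher in 24.0% and 23.9%.

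WT livers differed by sex as well. Of the 37 members, 20 were higher in both WT females than in both WT males (22.5% of the 22743 identifiers), and WT female 2 was the highest WT liver for 25.

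Other genes of the same cells were taken from lists written beside the members. Their counts stand beside 28.1% of all tested genes that rose and 6.23% that fell within females, and 13.4% and 4.09% within males. Among 31 other T cell genes in the table, 12 were tested, and 6 rose within females, 0 fell, and 0 were called within males. Thy1, a surface protein of T cells and of fibroblasts, had 16.8 and 29.7 FPKM in LKO-labelled females, 0.736 and 0.550 FPKM in LKO-labelled males, and 0.543 to 1.09 FPKM in WT livers (females log2 3.51 ± 0.29 SE, limma adjusted p 0.000457). The adaptor Fyb rose by 1.66 and the phosphatase Ptpn22 by 1.53 in females (adjusted p 0.00236 and 0.0079). Trat1, a receptor-associated adaptor, was listed at 0 in the 6 other livers and had 1.13 and 2.53 FPKM in LKO-labelled females, and Pdcd1, the checkpoint receptor PD-1, had 1.56 and 1.95 FPKM there and at most 0.0915 FPKM elsewhere. Both were too low to test and were named after their values were seen.

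Of 22 other NK and cytotoxic genes, 8 were tested, with 4 higher and 1 lower within females. The chemokine Ccl3 had 3.6 and 4.90 FPKM in LKO-labelled females, against 0 and 0.307 FPKM in WT females (log2 2.19, limma adjusted p 0.00209), and the NK receptor Cd244a rose by 1.38 (adjusted p 0.00744). S1pr5, which guides NK cell exit, fell to 0.205 and 0.811 FPKM in LKO-labelled females, against 4.79 and 4.43 FPKM in WT females (log2 -1.92, adjusted p 0.00641). Of 23 other B cell genes, 13 were tested, with 4 higher (Cd37, Cd72, Cd180 and Tnfrsf13b) and 1 lower (Bach2, a repressor of plasma cell fate) within females. These counts are near the shares over all tested genes, 28.1% higher and 6.23% lower. Cd37 and Tnfrsf13b were named after their values were seen. The B cell genes called do not mark B cells alone. Of 17 other plasma cell genes, 14 were tested and 7 rose within females. Among them Slamf7 rose by 2.30 and Prdm1, which drives plasma cell fate, by 1.20 on the log2 scale (adjusted p 0.0056 and 0.0203). Fkbp11, an endoplasmic reticulum foldase that hepatocytes also make, rose in both sexes.

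Most tested markers of other leukocytes also rose within females, but not all had the pattern of the members. Beside the counts below, 28.1% of all tested genes rose and 6.23% fell within females, and 13.4% and 4.09% within males. Of 12 pan-leukocyte genes, 11 rose within females and 0 were called within males, and their summed FPKM was 377 and 410.3 in LKO-labelled females, 49.1 to 72.6 in LKO-labelled males and 48.0 to 80.4 in WT livers. Ptprc, which encodes CD45 on all leukocytes, had 27.0, 23.9, 1.61 and 4.28 FPKM in LKO-labelled livers, against 4.35, 4.32, 1.39 and 1.72 FPKM in WT livers. The summed FPKM of the T cell receptor and CD3 chains was 0.723 and 1.96 times that of Ptprc in LKO-labelled females and 1.05 and 0.157 times in LKO-labelled males, against 0.914 to 1.89 times in WT livers. Set against Ptprc, the T cell chains of the LKO-labelled females thus did not both lie above WT.

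**Figure D5:**
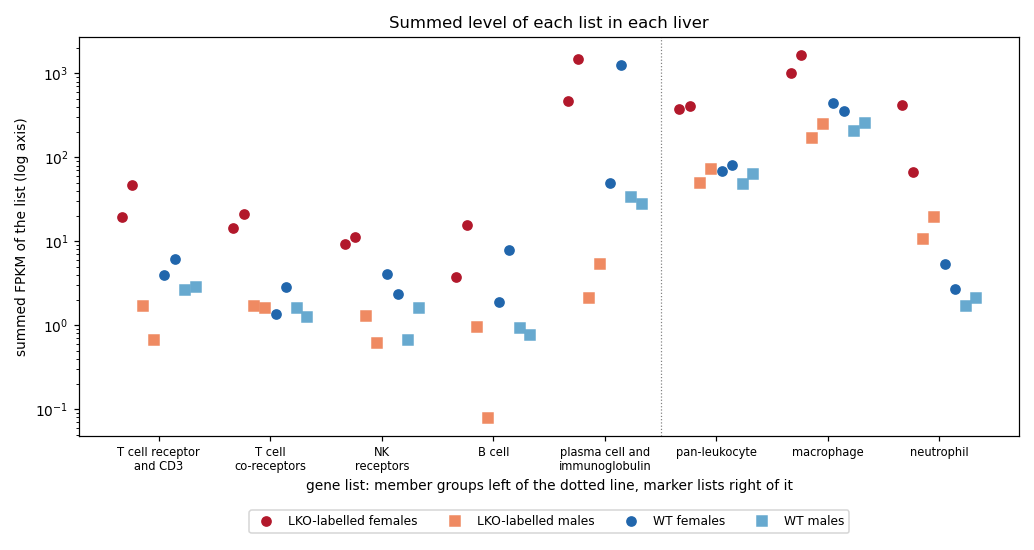
Summed FPKM of 5 groups of members and of 3 marker lists in each liver, on a log axis; circles are females, squares males. The 2 LKO-labelled females are highest in every list but the B cell and plasma cell groups, where WT female 2 (7.89 and 1264 FPKM) lies between them.

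Summed neutrophil markers were 424 and 67.8 FPKM in LKO-labelled females and 10.6 to 19.3 FPKM in LKO-labelled males, against 1.68 to 5.35 FPKM in WT livers, with 8 of 8 tested markers higher within females. All 4 LKO-labelled livers lay above all 4 WT livers for 6 of 10 neutrophil markers. This held for 2 of the 37 members and for 17.6% of the 22743 identifiers. Of 15 Kupffer cell and macrophage markers, 10 rose and 5 fell within females, the falls being Clec4f, Vsig4, Timd4, Cd5l and Marco of resident Kupffer cells. Of 6 tested dendritic cell markers 4 rose within females, beside 28.1% of all tested genes that rose and 6.23% that fell.

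Markers of some cells other than leukocytes moved in the LKO-labelled females too. For the counts given here, 28.1% of all tested genes rose and 6.23% fell within females. Summed stellate cell and fibroblast markers were 340 and 1147 FPKM in LKO-labelled females and 38.2 to 45.6 FPKM in LKO-labelled males, against 68.8 to 123 FPKM in WT livers, with 5 of 8 higher and 1 lower within females. Cholangiocyte markers summed to 294 and 3158 FPKM in LKO-labelled females and 7.46 to 9.79 FPKM in LKO-labelled males, against at most 22.1 FPKM in WT livers, with 2 of 3 tested markers higher within females. Erythroid and megakaryocyte markers summed to 166 and 1622 FPKM in LKO-labelled females and 424 and 98.5 FPKM in LKO-labelled males. WT livers had 119 to 235 FPKM, so only LKO-labelled female 2 and male 3 lay above them. Endothelial markers summed to 76.9 and 238 FPKM in LKO-labelled females and 66.2 and 63.3 FPKM in LKO-labelled males. Their range in WT livers was 77.4 to 134 FPKM. Hepatocyte markers summed to 25185 to 31651 FPKM in LKO-labelled females and 18821 to 20188 FPKM in LKO-labelled males, against 41139 to 46575 FPKM in WT livers. Since FPKM is a share of a library's fragments, a smaller hepatocyte share raises other values, and the part of this or of the other cell types in the changes of the members was not tested. Median-of-ratios scaling, which sets the median gene near 0, moved the median change of all tested genes within females to 0.03, against 0.45 as deposited, and the share of calls that were higher to 55.9%, against 81.9%. With it, 13 members were called within females, 12 higher and 1 (Zap70) lower, beside 14.9% of all tested genes higher and 11.7% lower.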

How the data were processed

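The deposited table holds FPKM values for 35275 identifiers in 8 sample columns. The submitters' processing notes name mm10 and 4 tools (DESeq2, HTSeq, fastp and STAR 2.6.1) without their roles. No source used here states the strand setting or annotation, so reads of antisense or overlapping genes could be mixed. Symbols matched 34490 identifiers, and coordinates are from GENCODE M21 (GRCm38).

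FPKM values above 0 came in whole steps of 1 fragment, to within 0.001 fragments, which gave depths and fragments per gene. Where no annotated transcript length fitted, the shortest fitting length was taken. A value of 0 allows up to 3 fragments, for counting error only.

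The filter was a mean of 0.5 FPKM or more. Tests on log2(FPKM + 1) used limma-trend (version 3.58.1 under R 4.3.3). The model held genotype and sex, or 1 mean per genotype and sex for within-sex contrasts and their difference. Simulated data with known changes were used to test the script. Replicate numbers follow the order of deposit and were not used to pair livers. The labels do not call the samples separate animals, and p-values cover only the spread seen between them. Members and lists were chosen with earlier results of these data known. All 37 members are named. From each other list up to 3 genes with the smallest p over both sexes are named, and any that a statement turns on. 5 genes of these lists were not analysed here. Alternatives were another pseudocount, other filters and scalings, voom, no sex term, and leaving out libraries. Sequence identity came from local alignment of GENCODE transcripts (Biopython 1.88).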

Additional observations from a re-analysis of the deposited data

Results flagged for a closer look

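Among 4 livers of a label, 9 values stood far from the other 3 by Dixon's test on FPKM. Its rate of about 5% of groups by chance holds for normal values, which FPKM from livers of both sexes need not be. No share over all genes is given beside the 9 values, so these are descriptions. In WT female 2 these were Igkc at 792 FPKM, Ighm at 429 FPKM, Jchain at 39.2 FPKM, Mzb1 at 3.12 FPKM, Pou2af1 at 2.32 FPKM and Cd79b at 2.10 FPKM, all genes of B or plasma cells. In LKO-labelled female 2 they were Ighm at 457 FPKM, Ms4a1 at 1.82 FPKM and Klrb1c at 0.523 FPKM.

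For 7 of the 30 tested members the log2 change with the LKO label differed between the sexes by limma. Of all tested genes, 5.47% had a larger and 1.73% a smaller change in females. By voom 0 members were called, beside 0.118% of all tested genes with a larger change. The excess of the female over the male change was 3.0 for Ltb, 2.99 for Trbc2, 2.66 for Trac, 2.06 for Cd8b1, 1.93 for Lck, 1.73 for Lat and 1.70 for Cd8a. Both LKO-labelled females lay above all 6 other livers for each of them, an order that picking genes by this excess favours. Cd8a, Cd8b1 and Lat had passed the filter only through those females.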

How the results depend on the processing

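Within females the count of called members, 17, lay between 13 and 21 under the alternatives that kept all libraries and ranged from 7 to 20 when 1 library was left out. Within males the count of 0 became 1 with a pseudocount of 0.1 and ranged from 0 to 2 without 1 library. Over both sexes the count of 1 became 2 with a pseudocount of 0.1 and 7 by voom on recovered fragments. It was 0 with no filter, with median-of-ratios scaling, with totals formed without the 50 most abundant genes and with no sex term, and ranged from 0 to 1 without 1 library. For the difference between the sexes the count of 7 became 3 with a pseudocount of 0.1, 4 with no filter, 4 with median-of-ratios scaling, 0 by voom and 14 without the 2 libraries low in Gm42418, and ranged from 0 to 16 without 1 library. The cause was not tested. Under the alternatives that kept all libraries, 14.9% to 28.7% of all tested genes rose within females and 10.3% to 31.0% over both sexes. With a pseudocount of 0.1, 4.77% fell within males. A larger change in females was called for 3.12% with that pseudocount, 2.09% with no filter, 3.28% with median-of-ratios scaling and 0.118% by voom. Over both sexes 48.9% of all calls were higher with median-of-ratios scaling, against 81.1% as deposited; within males these shares were 52.7% and 76.6%, and for the difference between the sexes 61.5% and 76.0%.

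Some log2 changes that were not called in the main fit changed sign. Over both sexes, Gzma became -0.057 and Cxcr6 -0.087 with median-of-ratios scaling, Cd79a -0.062 with a pseudocount of 0.1 and Igkc 1.07 by voom. Without 1 library, changes over both sexes ranged from -0.088 to 0.246 for Gzma, from -0.039 to 0.254 for Cxcr6, from -0.204 to 0.501 for Cd79a, from -0.076 to 0.462 for Cd79b, from -0.082 to 0.558 for Pou2af1, from -0.297 to 1.08 for Jchain and from -1.69 to 0.327 for Igkc. Within females they ranged from -0.159 to 0.663 for Gzma, from -0.256 to 1.51 for Cd79a, from -0.372 to 1.23 for Pou2af1, from -1.95 to 3.07 for Ighm and from -0.358 to 4.10 for Igkc. No paired analysis was run because the labels name no pairs of livers. Sample titles carry consecutive numbers in LKO-labelled and WT female 1, female 2 and male 4, and near ones in male 3. The labels do not say whether such neighbours share a litter, cage or day, so no block was fitted. Members below about 1 FPKM rest on few fragments, and 7 could not be tested at the main filter.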
